A study of Mus musculus with 2 samples.

Results

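The vomeronasal receptor genes of the mouse were examined for trimethylation of histone H3 at lysine 4 (H3K4me3), a mark of active and poised gene starts, in fetal male germ cells. Members were all genes of the RefSeq annotation of GRCm38.p6, the assembly of mm10, whose symbol begins with Vmn1r or Vmn2r. That rule gave 645 genes. Of these, 7 carried positions on alternate scaffolds and were left out. The remaining 638 members, of 49595 genes in all, comprised 352 protein-coding genes and 286 pseudogenes. The Vmn1r family (V1R) had 367 members, 229 of them protein-coding. The Vmn2r family (V2R) had 271 members, 123 of them protein-coding. With 10 kb on either side, the members merged into 437 loci of 16.5 Mb together, and 947 of 134677 peaks on the chromosomes overlapped them. The genes were chosen by symbol, and the group was selected on its low share of gene ends with a peak in this same list. Their levels are therefore given as a description and no test was made on them.

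The cells were prospermatogonia, the germ cells of the fetal testis, sorted from E17.5 embryos by the Oct-GFP reporter. CUT&RUN, which uses an antibody-bound nuclease to cut out and sequence the DNA next to a mark, was run on 130000 cells with an H3K4me3 antibody and with rabbit IgG. Each antibody had 1 library without replicates, and only the H3K4me3 library was analysed here. The labels give no strain, no genotype beyond the reporter and no number of embryos. Because a single library was available, no difference could be set against a spread between replicates and no p-value was computed.

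Vomeronasal receptors are G-protein-coupled receptors of sensory neurons in the vomeronasal organ, where they detect pheromones and other chemical signals between animals. V1R genes mostly have their coding sequence in a single exon and signal through the G protein subunit Gnai2. V2R genes are split into several exons, encode a long extracellular domain and signal through Gnao1. Both families are tandem arrays with many pseudogenes, and a mature vomeronasal neuron expresses only a few of the receptors. H3K4me3 is otherwise typical of gene starts rich in CpG dinucleotides.

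Windows of 300 bp around annotated starts, 250 bp before and 50 bp after, were taken from RefSeq (GRCm38.p6), which gave 324 windows for 323 members. In 306 of these members the window lay at the outer 5′ end of the gene, and in 17 it lay inside, up to 33437 bp from that end. The 5 shown were chosen after their values were seen. They give the sole RefSeq window under a peak (Vmn2r29, chr7:7278240-7278539, minus strand), and a V1R window with the most CpG of that family, which had no peak (Vmn1r54, chr6:90268856-90269155, plus strand). Next are the windows of marked genes whose peaks lay outside the window, Vmn1r213 (chr13:23010999-23011298, plus strand) and Vmn2r69 (chr7:85415627-85415926, minus strand). Last is a window held letter for letter by 6 members (Vmn1r111, chr7:20703167-20703466, minus strand). They run 5′ to 3′ and capitals mark each CpG.
Vmn2r29: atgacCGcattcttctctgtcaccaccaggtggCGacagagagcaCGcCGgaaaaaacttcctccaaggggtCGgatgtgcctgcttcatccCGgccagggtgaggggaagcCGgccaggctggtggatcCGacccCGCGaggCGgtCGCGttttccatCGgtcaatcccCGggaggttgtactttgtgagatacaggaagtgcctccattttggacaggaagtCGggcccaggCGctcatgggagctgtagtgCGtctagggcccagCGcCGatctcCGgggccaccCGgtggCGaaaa
Vmn1r54: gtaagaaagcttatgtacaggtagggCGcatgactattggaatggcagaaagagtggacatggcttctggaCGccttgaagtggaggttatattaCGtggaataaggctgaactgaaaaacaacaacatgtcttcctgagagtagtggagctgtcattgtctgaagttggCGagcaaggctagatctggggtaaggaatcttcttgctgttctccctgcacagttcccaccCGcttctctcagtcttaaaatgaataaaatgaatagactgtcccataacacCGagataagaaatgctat
Vmn1r213: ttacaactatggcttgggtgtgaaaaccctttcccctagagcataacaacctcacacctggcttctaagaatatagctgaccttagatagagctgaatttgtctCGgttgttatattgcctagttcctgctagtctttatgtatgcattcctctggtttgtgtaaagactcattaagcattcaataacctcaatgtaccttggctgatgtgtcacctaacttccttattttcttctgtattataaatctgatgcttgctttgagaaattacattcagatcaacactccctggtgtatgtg
Vmn2r69: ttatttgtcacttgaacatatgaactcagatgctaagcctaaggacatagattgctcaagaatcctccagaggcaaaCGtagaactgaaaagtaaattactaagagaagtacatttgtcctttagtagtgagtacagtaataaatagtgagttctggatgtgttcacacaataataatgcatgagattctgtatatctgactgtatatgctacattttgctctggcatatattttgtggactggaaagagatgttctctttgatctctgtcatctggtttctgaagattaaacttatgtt
Vmn1r111: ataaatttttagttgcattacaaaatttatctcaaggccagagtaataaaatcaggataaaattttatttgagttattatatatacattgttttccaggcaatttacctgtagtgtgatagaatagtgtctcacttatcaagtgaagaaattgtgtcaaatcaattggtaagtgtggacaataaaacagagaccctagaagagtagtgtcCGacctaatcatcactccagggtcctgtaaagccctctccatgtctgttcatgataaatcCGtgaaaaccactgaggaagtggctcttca
The Vmn2r29 window held 23 CpG at 62.3% G+C. The Vmn1r54 window held 6 CpG at 44.3% G+C. The Vmn1r213 and Vmn2r69 windows held 1 each and the shared Vmn1r111 window held 2.

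The ends of vomeronasal receptor genes carried few H3K4me3 peaks. A member counted as marked if any peak touched the stretch from 1 kb before to 1 kb after either annotated end, with no regard to strand. Of the 638 members, 69 were marked (10.8%, 95% Wilson interval 8.64 to 13.5%). Among protein-coding members 28 of 352 were marked (7.95%, 5.56 to 11.3%), beside 74.9% of all protein-coding genes. Among pseudogene members 41 of 286 were marked (14.3%, 10.7 to 18.9%), beside 37.3% of all annotated pseudogenes. Moving the ends of the members by 100 kb to either side gave 21.3% and 19.1%, both above the share at the ends themselves. Moving the ends of all protein-coding genes gave 24.0% and 24.3%, far below the share at their own ends. The rule chose these genes as poor in the mark, so the gap to the background is a description.

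Protein-coding V1R genes were marked in 17 of 229 cases (7.42%, 4.69 to 11.6%) and protein-coding V2R genes in 11 of 123 (8.94%, 5.07 to 15.3%), with overlapping intervals. Pseudogenes were marked in 12 of 138 V1R cases (8.70%, 5.04 to 14.6%) and in 29 of 148 V2R cases (19.6%, 14.0 to 26.7%), whose intervals overlap. Without cluster 13B, described further on, the V2R pseudogene share was 19 of 135 (14.1%, 9.20 to 20.9%). The difference between families was not tested. For protein-coding V2R genes both moved positions gave 27.6%. The other chemoreceptor families were also marked less often than the share of all protein-coding genes, which is a comparison of counts without a test. Olfactory receptor genes were marked in 222 of 1109 cases (20.0%, 17.8 to 22.5%), close to the 20.9% and 23.5% of their moved ends. Taste receptor genes were marked in 4 of 38 cases and trace amine receptor genes in 7 of 15. Neighbouring genes share chromatin and can share a peak, so the intervals, which treat genes as separate, are too narrow. They cover the counting of genes only and no spread between libraries, since a single library was available. The intervals of pileups given further on also cover counting error only.

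**Figure D1:**
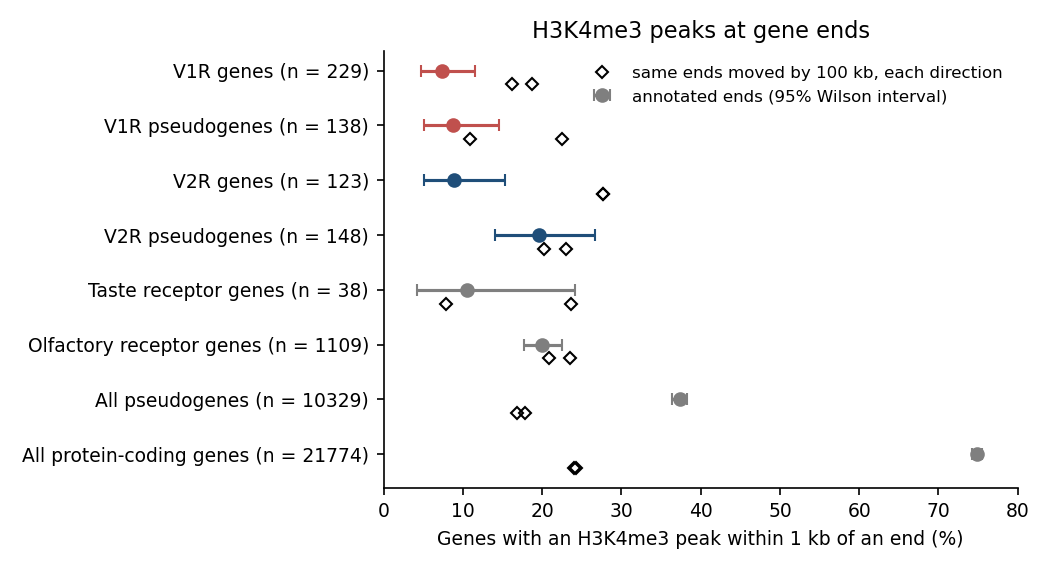
Percent of genes with a peak within 1 kb of an annotated end (points, with 95% Wilson intervals as bars) for the members by family and kind and for comparison groups, with the same share after moving the ends by 100 kb. Protein-coding V1R and V2R genes sit at 7.42% and 8.94%, below their moved positions, and all protein-coding genes sit at 74.9%.

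The start windows of RefSeq were almost free of peaks. Most of these windows lay at gene ends, on which the group was selected, so their low share is a description. No window of 206 V1R genes was under a peak, which allows a share of up to 1.46% as 3 counts of the total (Wilson upper bound 1.83%). Of the 118 V2R windows, 1 was under a peak, that of Vmn2r29. The 324 windows together gave 0.309% (0.0545 to 1.73%), beside 52.1% of the 32851 windows of all genes and 5.91% (56 of 948) for olfactory receptors. With windows placed at the outer 5′ end of each gene in place of the RefSeq start, 4 of 323 members had one under a peak (1.24%, 0.483 to 3.14%). These were Vmn2r29 and the genes Vmn1r4, Vmn1r14 and Vmn2r2, whose RefSeq windows lie 32599, 7284 and 33437 bp further in. This placement was tried after the data were seen. Vmn2r29 spans chr7:7212996-7278289 on the minus strand. Its peak of 873 bp (chr7:7277564-7278436) had a summit pileup of 31 fragments (exact Poisson interval 21.1 to 44.0) over a local background of 2.59. The fold enrichment that the authors' peak caller gives, read as (pileup + 1)/(background + 1) at the summit, was 8.91.

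Receptor windows were poor in CpG. The median was 1 CpG in both families, with at most 6 in a V1R window. It was also 1 in olfactory receptor windows, beside 7 over all windows and 14 over protein-coding genes that are no chemoreceptors. Median G+C was 36.0% in V1R and 38.2% in V2R windows, beside 35.0% in olfactory receptor windows and 52.7% over all. Windows of other genes with as few CpG were also mostly without a peak. With 1 CpG, 0 of 108 receptor windows, 1.89% of olfactory receptor windows and 6.33% of windows of other genes were under a peak. With 2 to 3 CpG the shares were 0 of 119, 8.37% and 11.9%. With 4 to 6 CpG they were 0 of 18 (upper Wilson bound 17.6%), 24.1% and 28.9%, and Vmn1r54 belonged to those 18. The sole receptor window with 11 or more CpG, that of Vmn2r29, was under a peak, as were 92.2% of windows of other genes in that class. The part of CpG content in the low share was not tested.

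**Figure D2:**
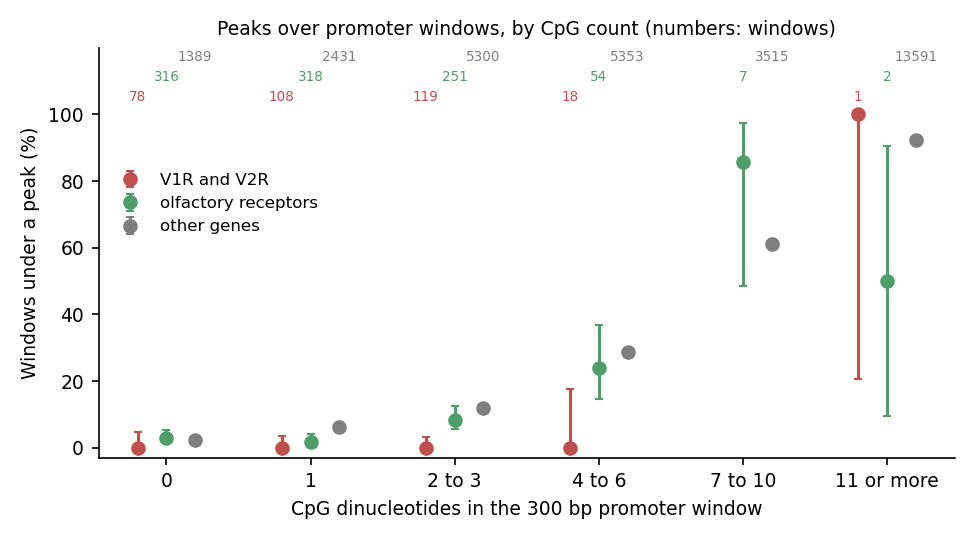
Percent of 300 bp start windows under a peak, with 95% Wilson intervals as bars, by the number of CpG in the window for vomeronasal receptors, olfactory receptors and other genes. Receptor windows stay at 0 up to 6 CpG, while windows of other genes range from 2.45% without CpG to 92.2% with 11 or more.

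Short motifs in these windows differed between the families, counted on both strands and each on its own, so that matches of different motifs may overlap. TATAAA, the core of a TATA box, occurred in 42.2% of V1R and 22.9% of V2R windows, beside 41.0% of olfactory receptor and 13.6% of all windows. CCAAT occurred in 67.0% of V1R and 29.7% of V2R windows, beside 40.6% of olfactory receptor and 37.4% of all windows. GGGCGG, the GC box, was found in 0 of the 324 receptor windows, beside 1.05% of olfactory receptor and 35.7% of all windows. CACGTG, the E-box, was in 0.485% of V1R and 8.47% of V2R windows, beside 2.11% of olfactory receptor and 7.15% of all windows. The low G+C of the receptor windows was not taken into account in these counts. These are matches of letters in windows set by the annotation. Of the 229 protein-coding V1R genes, 200 had a length divisible by 3, as a coding sequence without untranslated regions has, so their annotated starts may be coding starts. Such a length was found in 42 of 123 protein-coding V2R genes, 873 of 1109 olfactory receptor genes and 8076 of all 21774 protein-coding genes.

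Peak summits were rarer around the RefSeq start than in the neighbourhood of the genes. Within 1 kb of the start, 2 summits were found over 206 V1R genes, or 4.85 per 1000 genes and kb (exact Poisson interval 0.588 to 17.54). V2R genes had 1 summit over 117 genes, or 4.27 (0.108 to 23.8). Olfactory receptor genes had 75.7 (63.8 to 89.2) and other protein-coding genes had 517 (509 to 525). From 1 to 10 kb on either side the density was 43.7 (37.2 to 51.0) for V1R, 56.5 (46.8 to 67.6) for V2R, 60.1 (56.5 to 63.9) for olfactory receptors and 58.6 (57.7 to 59.5) for other protein-coding genes. The V1R interval lay below those of the last groups, and the V2R interval overlapped them. In olfactory receptor genes the summits near the start lay in the first kb after it, at 140 per 1000 genes and kb (117 to 166). The same bin held 1 summit in each vomeronasal family. For 306 of 323 members the RefSeq start is the outer 5′ end of the gene. The group was picked for its low share of gene ends with a peak, so the low density at the start is a description.

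**Figure D3:**
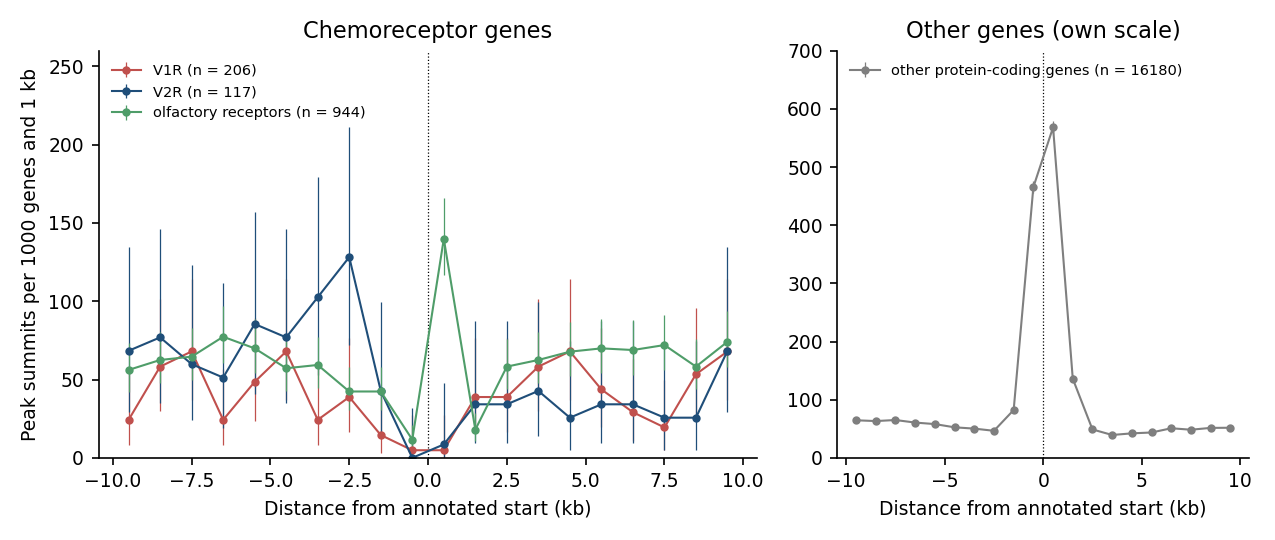
Peak summits per 1000 genes and kb (vertical axis) in 1 kb bins from 10 kb before to 10 kb after the annotated start (horizontal axis) for V1R, V2R and olfactory receptor genes (left) and other protein-coding genes (right, own scale), with 95% exact Poisson intervals as bars. Both vomeronasal families dip at the start, to 4.85 and 4.27 within 1 kb, where other protein-coding genes reach 517. Most of these starts are gene ends, on which the members were picked as poor in peaks.

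In all, 76 peaks touched a member's end. Of the peaks at each of the 69 marked members, the one of highest fold is described here, which gave 68 distinct peaks. They mostly lay beside the genes. Their summits fell outside the gene in 54 cases and inside in 15. In 14 cases the peak also touched the end of another gene. Of the 25 with known strand, 9 were marked at the start, 15 at the stop and 1 at both. Median fold of these peaks was 7.07 (4.50 to 12.2), 6.91 over protein-coding and 7.09 over pseudogene members. The same medians over all marked protein-coding genes and pseudogenes were 6.21 and 7.07. At the threshold, the peak of Vmn2r106 reached 8 bp into the 1 kb window, and that of Vmn2r-ps77 reached 21 bp. Just outside it were Vmn1r-ps40, with its nearest peak 1001 bp from an end, and Vmn2r-ps63, with 1002 bp.

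Among V1R genes, which encode the receptors with short extracellular ends, Vmn1r213 (chr13:23011249-23012403) had the strongest peak. That peak, chr13:23013292-23014105, lay 889 bp past the stop end, with a fold of 12.2, a pileup of 37 (26.1 to 51.0) and a width of 814 bp. Vmn1r-ps142 followed with a fold of 11.9 and a summit 902 bp from the gene. The peak of Vmn1r70, on chromosome 7, had a fold of 11.7 and a pileup of 51, and its summit lay 908 bp beyond the stop. The folds of Vmn1r-ps150, Vmn1r89 and Vmn1r198 were 9.77, 9.64 and 9.54. Those of Vmn1r87, Vmn1r4, Vmn1r227 and Vmn1r83 ran from 8.67 down to 8.14. Of these 10, Vmn1r4 alone had its summit inside the gene, under a peak of 1828 bp that also covered an end of Nt5c3, which encodes a nucleotidase. None of the RefSeq windows known for these genes was under a peak, but the peak of Vmn1r4 covered the outer 5′ end of that gene.

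Among V2R genes, 7 of the 10 strongest were pseudogenes, a share like the 29 of all 40 marked V2R members. Vmn2r-ps28 had the highest fold, 10.53, in a peak of 1132 bp that also touched an end of Rfc3, a subunit of the clamp loader of DNA replication. Vmn2r-ps15 followed with 10.28 and the highest pileup of any locus peak, 116 fragments (95.9 to 139), at an end shared with Gm13243. Vmn2r-ps64 had a fold of 9.53. Vmn2r69, a protein-coding gene whose peak lay 777 bp before the start, had 9.31. Vmn2r29 had 8.91 and Vmn2r106 had 8.76. The folds of Vmn2r-ps97, Vmn2r-ps23, Vmn2r-ps106 and Vmn2r-ps19 ran from 8.40 down to 8.01. The 10 strongest V1R peaks were at no other gene's end in 9 cases, and the 10 V2R peaks in 7.

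Seen as whole loci, the regions were not poor in peaks, against the name under which they were picked. The merged loci held 57.5 peaks per Mb (53.9 to 61.2), beside 50.6 over the chromosomes and 64.1 over olfactory receptor loci. Peaks covered 3.27% of the locus length and 3.33% of the chromosomes. V2R loci held 61.5 per Mb (56.7 to 66.5) and V1R loci 51.3 (46.0 to 57.1). A member had at least 1 peak in the gene or its flanks in 431 of 638 cases (67.6%, 63.8 to 71.1%). The share was 74.3% for olfactory receptor genes, 72.2% for all pseudogenes and 92.7% for all protein-coding genes, which are mostly longer. For V2R genes it was 210 of 271 (77.5%) and for V1R genes 221 of 367 (60.2%). Protein-coding V2R genes have a median length of 24544 bp and protein-coding V1R genes one of 924 bp, so V2R loci are also wider.

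Gene bodies were emptier than flanks. V1R gene bodies held 7 peaks in 0.465 Mb, or 15.0 per Mb (6.05 to 31.0), beside 54.6 (48.9 to 60.8) in V1R flanks. V2R gene bodies, which contain long introns, held 51.4 per Mb (45.4 to 57.9) and V2R flanks 73.5 (66.0 to 81.6). The chromosomes held 50.6 per Mb. In both families the intervals of body and flank did not overlap. The group was picked for its low share of gene ends with a peak, and V1R genes have a median length of 921 bp. A gene of that length lies wholly within 1 kb of its ends, so the V1R body density partly restates that choice. Of the 947 locus peaks, 519 (54.8%) lay between genes and 224 (23.7%) inside a member, in both cases away from any gene end. Another 60 touched only a member's end, 16 touched a member's and another gene's end, and 110 touched only another gene's end. In all, 186 locus peaks (19.6%) touched an end of any gene, beside 24.9% of all peaks.

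Locus peaks were of ordinary height and somewhat narrow. Their median fold was 6.10 (2.65 to 14.9), that of all peaks 6.002. Their median width was 478 bp against 573 bp, their median pileup 23 against 27 fragments, and their median background 2.45 against 3.002. The lowest background of the list, 2.11, applied to 42.1% of locus peaks and 31.4% of all peaks. The 3 highest folds were at peaks inside V2R genes, with 14.9 in Vmn2r-ps16, 14.5 in Vmn2r100 and 13.6 in Vmn2r94. Peaks near Vmn2r-ps100, Vmn1r36, Vmn2r-ps43, Vmn2r-ps108 and Vmn2r-ps99, from 13.1 to 12.6, all touched an end of another gene. Peaks near Vmn2r-ps121 and inside Vmn2r109 followed, both at 12.3. The widest peak, 2191 bp, had its summit 8670 bp from Vmn2r62, followed by 2116 bp inside Vmn2r-ps16. The peak over Vmn1r4 came next, then 1751 bp near Vmn2r22 and 1731 bp near Vmn1r53. The members with most peaks in their locus were the long pseudogenes Vmn2r-ps16 with 20, Vmn2r-ps17 with 13, Vmn2r-ps23 with 11 and Vmn2r-ps126 and Vmn2r-ps15 with 10 each. Vmn1r2 and Vmn1r3, which lie side by side on chromosome 4, had 9 each, and 8 members had 8.

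Members were joined into clusters where neighbours lay at most 500 kb apart, and clusters of 5 or more members were named by chromosome and a letter in order of position. This gave 64 clusters and single genes, and 18 clusters of 5 or more members held 554 of the 638 members. Chromosome 7 alone held 275 members, of which 17 were marked. Chromosome 6 held 96 with 11 marked, chromosome 13 held 89 with 18 and chromosome 17 held 78 with 10. On the Y chromosome, 0 of 20 members were marked and 19 had no peak within 10 kb. Without such a peak were 207 of all 638 members and 8846 of all 49595 genes. No share for other genes of the Y chromosome is given here, so the part of that chromosome was not tested. The clusters spanned a wide range of density.

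Clusters made up wholly of V1R genes ran from 31.2 to 80.5 peaks per Mb. Cluster 7E, with 99 V1R genes, had 31.2 peaks per Mb (25.9 to 37.2) and 0 marked members, and cluster 6C, with 23, had 32.1 and 1 marked. Cluster 13A, with 75 members, had 45.4 and 8 marked. Cluster 6A, with 44, had 65.0 and 6 marked. Cluster 6B, with 9, had 80.5 (50.5 to 122) and yet 0 marked. Clusters 7A and 7D, mostly V1R with some V2R genes, had 59.9 and 60.2 with 1 and 6 marked. Cluster 7C, with 12 V1R and 10 V2R genes, had 67.5 and 1 marked. In 7D, 16 of the 19 other protein-coding genes were marked, beside 6 of its 40 receptor members and 74.9% of all protein-coding genes. Of the 97 peaks of 7D, 31 touched the end of a non-member.

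V2R clusters were as varied. Cluster 7G, with 37 V2R genes, had 87.2 peaks per Mb (72.7 to 104), and cluster 17A, with 36 V2R and 26 V1R genes, had 86.5 (77.2 to 96.6). Their marked members numbered 5 and 10. Cluster 13B had 85.1, cluster 7F 70.7, cluster 5A 65.0, cluster 17B 55.7 and cluster 7B 50.7. Cluster 6D had 47.7, cluster 3A 34.6 and cluster 5B 31.1. The marked members in 7F, 5A, 17B, 7B, 6D, 3A and 5B numbered 1, 2, 0, 3, 2, 2 and 1.

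**Figure D4:**
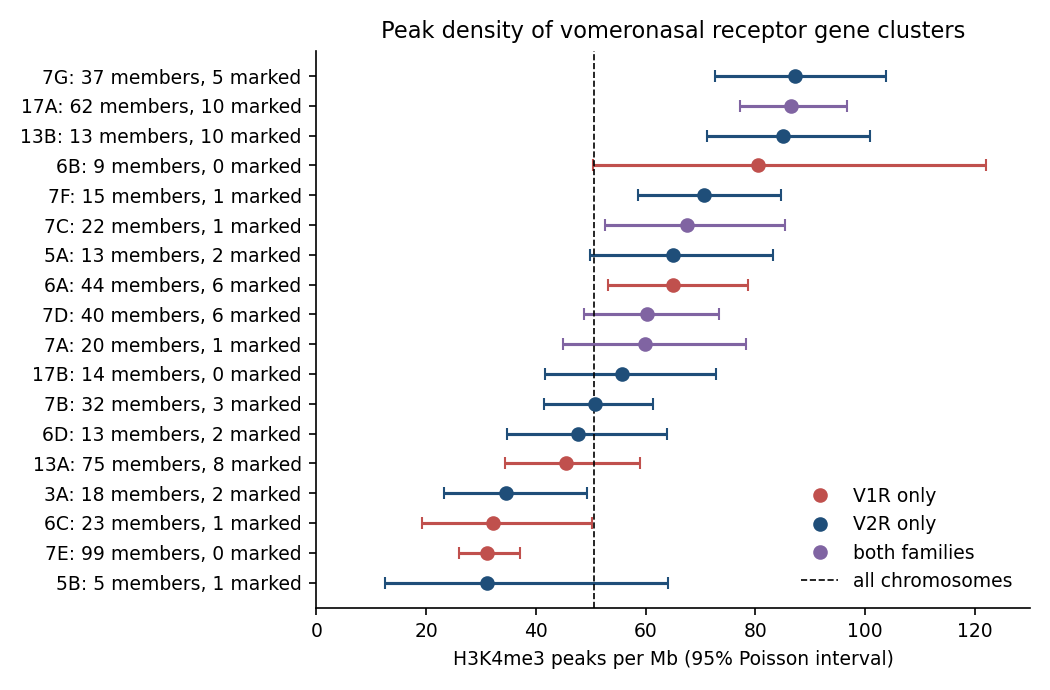
Peaks per Mb (horizontal axis, points with 95% exact Poisson intervals as bars, coloured by family) of the 18 clusters of 5 or more members, each row giving its members and how many were marked, with the level of all chromosomes (50.6 peaks per Mb) as a dashed line. Cluster 7E lies at 31.2 peaks per Mb with 0 of 99 members marked, and 13B at 85.1 with 10 of 13 marked.

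Cluster 7E, at chr7:20101158-24055691, was the largest by members and by length. None of its 99 members was marked, of which 86 are protein-coding (upper Wilson bound 3.74%), and 65 had no peak in the gene or its 10 kb flanks. Its receptor loci held 25.8 peaks per Mb (19.1 to 34.0). The longest gap between summits was 321 kb, and 1 of the 18 other protein-coding genes inside was marked, beside 74.9% of all protein-coding genes. The 18 include V1rd19, a V1R gene under an older symbol that the rule did not take, as with V1ra8 in cluster 6C. Most of the 18 carry Gm symbols, and whether they are receptor copies was not tested. The start windows of 7E were close copies of each other. Of 83 windows, 75 (90.4%) were at least 95% identical to that of another member, and 52 had an identical partner, among them the 6 with the window printed for Vmn1r111.

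Over both families, 133 of 323 members had a window at least 95% identical to that of another member, and 62 had an identical one. Of these 133, 3 were marked (2.26%, 0.770 to 6.42%). Of the 190 with less identity, 22 were marked (11.6%, 7.77 to 16.9%). Cluster 7E alone supplied 75 of the 133. Without it the counts were 3 of 58 (5.17%, 1.77 to 14.1%) and 22 of 182 (12.1%, 8.12 to 17.6%), whose intervals overlap. Across 16 clusters with at least 5 windows, peaks per Mb of the receptor loci and the share of such near-identical windows had a Pearson's r of -0.552 and a Spearman's rho of -0.543. Without 17B and 7E, which had the highest shares, r was -0.325 over 14 clusters. The points share 1 library and the same peak calling, so the coefficients describe these clusters only. The sources used here do not say how fragments matching several copies were placed, and whether fewer fragments could be placed in near-identical copies was not tested.

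**Figure D5:**
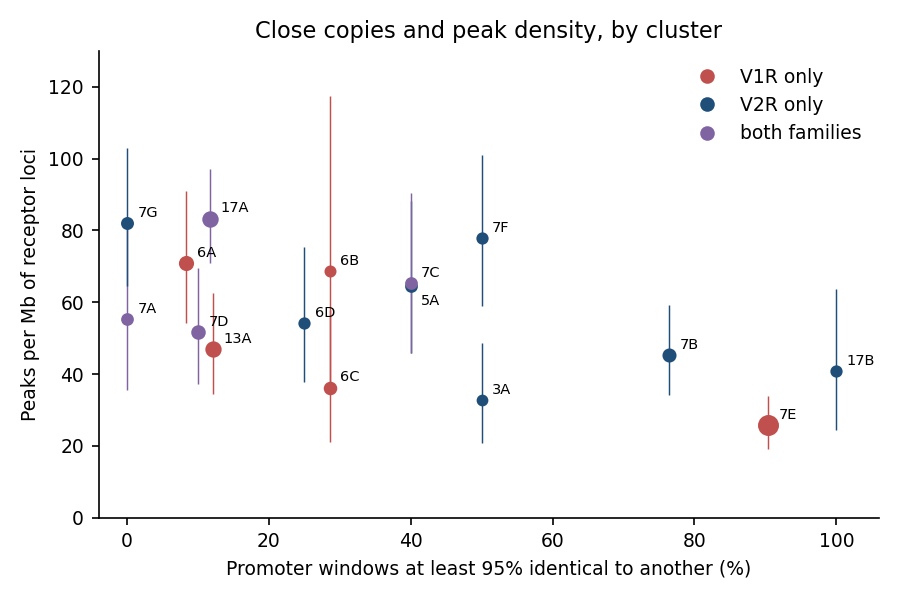
Peaks per Mb of the receptor loci in each of 16 clusters (vertical axis, with 95% exact Poisson intervals as bars and larger points for more windows) against the percent of its start windows at least 95% identical to that of another member (horizontal axis). Cluster 7E lies at 90.4% and 25.8 peaks per Mb, and the coefficient falls from -0.552 to -0.325 without it and 17B.

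Cluster 13B, at chr13:65353153-66873018, had the highest share of marked members among the 18 clusters. Its 13 members are all V2R pseudogenes, and 10 were marked (76.9%, 49.7 to 91.8%), beside 37.3% of all pseudogenes. Their marking peaks were 870 to 1473 bp wide, with pileups of 33 to 59 and folds of 5.60 to 8.40. The summits lay 167 to 1476 bp from an end, outside the gene in 9 of 10 cases, and 9 of 10 peaks touched no other annotated end. Inside the cluster, 9 of 13 other protein-coding genes were marked, beside 74.9% of all protein-coding genes. The tallest marking peaks, with pileups of 80 to 116 fragments, lay on chromosome 4, where 5 of 8 V2R members were marked. In 4 of those 5 the peak was also at an end of another gene, Gm13243, Gm13240, Zfp978 or the pair Gm13161 and Zfp982. The other high pileups there, 113 near Vmn2r-ps20 and 89 near Vmn2r-ps18, touched ends of Gm13141 and Zfp991.

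Genes that act with the receptors in vomeronasal neurons were marked about as often as protein-coding genes in general, of which 74.9% were marked. Of 16 genes of signal transduction and neuron function, 13 were marked. Trpc2, the channel that carries the sensory current, had a fold of 9.62 and a pileup of 29. Gnai2 had 7.64 and Gnao1 3.68, the G protein subunits used by V1R and V2R neurons. Gng8, the γ subunit of these neurons, had 4.54. Omp, the olfactory marker protein, had a fold of 3.53 and only 10 fragments. Ano1, Kcnj3 and Stoml3 were not marked at an end, although each had a peak inside. Of 11 transcription factors and guidance genes of the neurons, 10 were marked, with Lhx2 at 11.7 and Robo2 at 10.57 the highest and Neurod1 the one not marked.

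The non-classical class I genes and the formyl peptide receptors of the vomeronasal organ were read against the same 74.9%. Of 10 genes of the class I group, whose products are found with V2R receptors, H2-M10.1 to H2-M10.5 and the light chain B2m were marked, with folds from 6.10 to 8.86. H2-M1, H2-M9, H2-M10.6 and H2-M11 were not. None of the 5 vomeronasal formyl peptide receptors was marked, and all of them lie inside cluster 17A, among V1R and V2R genes. The difference between these short lists was not tested.

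The labelled cell type was looked at on marker lists by the same call, which marks 74.9% of all protein-coding genes. Of 12 germ cell genes 9 were marked, a share like that background, among them Ddx4, Dazl, Pou5f1 and Dnmt3l, and Nanos2, Nanos3 and Piwil2 were not. Of 6 Sertoli cell genes 5 were marked, of 5 Leydig cell genes 1, of 6 endothelial and blood genes 3 and of 5 vomeronasal neuron genes 5. The lists do not set the labelled cell type apart, and the part of other cells in any result was not tested.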

How the data were processed

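H3K4me3 CUT&RUN of sorted prospermatogonia gave 1 peak list, and the IgG library was not used in the counts given here. Whether it served the authors as control in peak calling, and so entered the fold and local background, is not given. The submitters' processing notes name MACS2 2.1.0, Bowtie2 2.5.0, Trim Galore, deepTools 3.5.1, bedtools 2.27.1 and SAMtools 1.16.1, and the builds mm10 and sacCer3. The sources used here do not say what each tool did, how fragments with several matches were handled or how many fragments there were. The deposited list gives for each peak a fold enrichment, the −log10 p and −log10 q, a summit position and a score. The fold is a ratio of summit pileup to local background, read here with 1 added to each. The deposited score was 10 times the −log10 q without decimals in 99.9985% of peaks. These are the authors' values for single peaks, used only for description, ranking and filtering. Of 135064 peaks, 134677 lay on chromosomes 1 to 19, X and Y. All passed the −log10 q minimum of 2 used here.

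Pileup and background were recovered from the −log10 p, read as a Poisson upper tail, and the fold, read as (pileup + 1)/(background + 1). A whole pileup within 0.0001 was found for 134668 peaks and for every locus peak. Gene positions came from the RefSeq table of GRCm38.p6, which gives no strand. Strand came from the start windows, which 315 members lacked. The 348 genes on alternate scaffolds that carry a chromosome name were left out. They were recognised by a drop in position along the table. A peak belonged to a locus on 1 bp of overlap. Window identity was the best match to another member of the same family. Shares have Wilson intervals and densities exact Poisson intervals, at 95%.

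The members and gene lists were chosen with earlier results of these data known. Named genes were the 10 marked members of highest fold per family, the 10 with most locus peaks, those next to the threshold, those with a peak over the start window, members of the lists and all clusters of 5 or more. The 10 peaks of highest fold, the 5 widest and the 5 of highest pileup were added. Other names were chosen after values were seen. The scripts were tested on simulated data. Software was scipy 1.17.1, Biopython 1.88, matplotlib 3.10.9, pandas 2.3.3 and numpy 2.4.6 under Python 3.11.15. Alternatives covered peak thresholds, windows, flanks, overlap, gene kinds, moved ends, cluster gaps and leaving out clusters or peaks at other genes.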

Additional observations from a re-analysis of the deposited data

How the results depend on the processing

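Of 47 alternatives, 25 left a value within its interval, 2 left the number of clusters within 1.5 times and 20 moved a value. The share marked at an end, 10.8%, was 7.95% over protein-coding members, 7.84% with the summit required inside the window, 6.90% with a window of 500 bp and 27.6% with one of 2500 bp. It was 21.3% and 19.1% at moved ends. The share with a peak in the locus, 67.6%, was 61.4% for peaks of fold 5 or more, 63.2% with 200 bp of overlap, 50.2% with 5 kb flanks, 85.1% with 20 kb flanks and 73.7% without cluster 7E. Peaks per Mb, 57.5, were 52.5 at a −log10 q of 5 or more, 41.2 at a fold of 5 or more, 49.8 without peaks at ends of other genes and 61.6 without 7E. The chromosomes gave 46.8, 34.3 and 38.0 under the first 3 of these settings. Coverage, 3.27%, was 2.77%, 2.69% and 3.54% for fold 5 or more, without peaks at other ends and without 7E. Median fold, 6.10, was 6.42 at a −log10 q of 5 and 7.07 at a fold of 5, where the filter itself raises it. The share of start windows under a peak was 0.309% and, at outer gene ends, 1.24%. The marked share was 9.44% without 13B and 12.8% without 7E. Leaving out clusters, the marked share without peaks at other gene ends (8.78%) and outer gene ends were chosen after the data were seen. The number of clusters was 73 with gaps of 250 kb and 57 with 1000 kb. No paired analysis was possible because the list comes from 1 library. Without the depth of that library, a receptor gene without a peak cannot be told from one with signal under the calling threshold, and the pileup of called locus peaks went no lower than 9 fragments.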

Other observations

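The highest V2R densities of summits were found 4 to 2 kb before the annotated start. That stretch held 27 summits at 22 of 117 genes, or 115 per 1000 genes and kb (exact Poisson interval 76.0 to 168). The V2R stretch from 10 to 4 kb before gave 69.8 (51.6 to 92.3), an interval that overlaps it. From 4 to 2 kb before the start, V1R genes had 31.6 (16.8 to 54.0), olfactory receptor genes 50.8 and other protein-coding genes 48.4. On chromosome 7, 14 of 48 V2R genes held 19 of these summits, and cluster 17A held 4 at 4 of 22 genes. The peaks had a median width of 406 bp, a median pileup of 21 fragments and a median fold of 5.78 (3.64 to 11.3). The stretch was singled out after the profile was seen.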
